A study of Mus musculus with 32 samples.

Results

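The genes described here are 36 mouse genes that fold proteins in the endoplasmic reticulum (ER) or carry the unfolded protein response, out of 24302 genes in the count files. They were taken by name from a fixed list and not by a threshold on their values, but the list was proposed with earlier results of these data known. All 36 were counted and passed the filter on low counts that left 12332 genes for testing. By role they were 13 chaperones and co-chaperones, 6 disulfide and prolyl isomerases, 6 sensors and regulators, 7 genes of ER-associated degradation and 4 genes of translocation into the ER. They were read in poly(A) RNA sequencing of CD4+ T cells, which include helper and regulatory T cells, taken from spleen and from axillary and inguinal lymph nodes of C57BL/6J mice. The groups, of 4 libraries each, were KO-labelled cells stimulated with antibodies to CD3 and CD28 in the presence of XCT790, KO-labelled cells stimulated in the presence of CompA, KO-labelled stimulated cells and KO-labelled unstimulated cells, and the same for wild-type (WT) cells. KO stands for the knockout of Nr4a1, the gene of the nuclear receptor Nur77, and the labels give neither the allele nor a cell type to which the knockout is limited. The stimulated groups had 12 h of stimulation, and each compound was given at 10 µg/ml. No time in culture is listed for the unstimulated cells, so they may differ from the stimulated cells in culture as well as in stimulation. XCT790 is known to lower the activity of estrogen-related receptor alpha as an inverse agonist, and CompA is named in the labels as Compound A, with no structure. The ages of the mice, the vehicle and the separate animals behind the 4 libraries of a group are not given in the sources used here, so that p-values measure the spread between libraries, which may be technical.

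Libraries held 16020288 to 23687940 counts in genes. All 9 T cell markers were detected in every group, with a summed level of 3789 to 6384 CPM per library. CPM is a gene's counts per 1000000 counts of its library, with library sizes corrected by TMM factors for differences in composition. It is thus a level relative to the other RNA of the library, and does not give the amount of RNA per cell. The targeted gene Nr4a1 was not lower in the KO-labelled cells. It averaged 94.2 ± 10.9 CPM in unstimulated KO-labelled cells and 71.6 ± 21.4 CPM in unstimulated WT cells, and 332 ± 128 CPM in stimulated KO-labelled cells and 166 ± 32.7 CPM in stimulated WT cells (SD, n = 4 each). The labels do not say whether the counted part of Nr4a1 lies outside a deleted part, so the groups are called by their labels. The WT stimulated libraries stood apart from the other stimulated groups. Over 120 genes at under 0.03 of their unstimulated level in the other 5 stimulated groups, they held 19.5 to 34.8 percent of the level in the unstimulated WT library of the same run of 4 library numbers, against 0.247 to 1.35 percent in those 5 groups, by the choice of the genes. Their summed level of 18 myeloid and dendritic cell markers was 668 to 1990 CPM, against 29.1 to 64.2 CPM in KO-labelled stimulated cells and 14.8 to 29.1 CPM in WT cells with XCT790. Counts of members called that rest on WT stimulated libraries are therefore also given after an estimated unstimulated share was subtracted from them, which left 12311 genes tested, and a member's subtracted value is given where its call changed. The subtraction treats this share as RNA of unchanged unstimulated cells. A weaker response of all WT cells would be removed with it, and which of these holds was not tested. By its construction it tends to bring the WT stimulated libraries closer to the other stimulated groups. Replicate 2 of the KO-labelled groups held the most B cell marker RNA, with 2815 CPM over 12 markers in unstimulated cells against 862 to 1279 CPM in the other 3 unstimulated KO-labelled libraries. Bulk RNA cannot tell fewer cells of a type from less RNA per cell.

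Proteins bound for secretion or the cell surface enter the ER through the Sec61 channel and fold there with chaperones such as BiP (Hspa5), with the calnexin and calreticulin lectins and with disulfide isomerases. When unfolded protein builds up, the sensors IRE1 (Ern1), PERK (Eif2ak3) and ATF6 are activated. IRE1 splices the mRNA of the transcription factor Xbp1, ATF6 is cut to release a transcription factor, and PERK slows translation, and together they raise chaperones and degradation genes. Activated T cells enlarge their ER as they grow and make cytokines and receptors. Counts per gene do not separate spliced from unspliced Xbp1 RNA and say nothing of the cleavage or phosphorylation of the sensors.

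The promoter sequences are shown first because one motif is shared by members that behaved differently in these cells. RefSeq promoters (GRCm38.p6, 250 bases before to 50 bases after the transcription start) matched 28 of the 36 members. The ER stress response element (ERSE), which is CCAAT and, after 9 bases of any kind, CCACG, was searched on both strands and is a known binding site of NF-Y with ATF6 or XBP1. It was found in 9 of those 28 promoters and in 37 of 27025 promoters of all genes (0.137 percent), or 17 of 9393 promoters of tested genes (0.181 percent). The element was defined in the literature on several of these same genes, so its presence in them is no independent finding. In the following lines the capitals mark the fixed bases of the motif, read along the strand on which it matched:
Hspa5: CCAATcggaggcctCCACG
Hsp90b1, upstream copy: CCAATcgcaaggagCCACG
Hsp90b1, downstream copy: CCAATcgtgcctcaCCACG
Calr: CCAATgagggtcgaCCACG
Canx: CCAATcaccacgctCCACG
Pdia6: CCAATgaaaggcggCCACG
Creld2: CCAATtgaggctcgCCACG
Dnajc3: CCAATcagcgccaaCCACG
Syvn1: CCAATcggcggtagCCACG
Derl3: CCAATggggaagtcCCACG
The Hspa5 copy lay at chr2:34772025-34772043, with its first base 65 bases before the start, and the Syvn1 copy at chr19:6046532-6046550, 44 bases before it. Only the bases between the 2 fixed parts differ among these copies, by the construction of the search. The variant ERSE-II, which is ATTGG and, after 1 base of any kind, CCACG, was found in Dnajb11 and Herpud1 and in 12 of 27025 promoters (0.044 percent). Ppp1r15a held the cyclic AMP response element TGACGTCA and Herpud1 the ATF4 composite TTGCATCA, which occurred in 2.031 and 1.032 percent of all promoters. The unfolded protein response element TGACGTGG and the amino acid response element TGATGCAAT were in none of the 28 member promoters, and in 0.714 and 0.222 percent of all. Read on its other strand, the amino acid response element is the ATF4 composite with 1 more base, so the Herpud1 site lacks only that base. The shorter site CCACG, which lies within ERSE and ERSE-II, was in 23 of the 28 and in 35.482 percent of all promoters.

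Hspa5 and Herpud1 are printed in full over the 250 bases before the start because they moved in opposite directions with stimulation. For Hspa5 (chr2:34771840-34772089, plus strand) the capitals mark the ERSE, and for Herpud1 (chr8:94386179-94386428, plus strand) they mark the ATF4 composite and the ERSE-II, in that order:
Hspa5: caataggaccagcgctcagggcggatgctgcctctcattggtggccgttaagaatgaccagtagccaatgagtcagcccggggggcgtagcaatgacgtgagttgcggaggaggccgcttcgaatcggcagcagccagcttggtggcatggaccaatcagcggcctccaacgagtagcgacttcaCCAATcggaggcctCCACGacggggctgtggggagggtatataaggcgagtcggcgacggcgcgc
Herpud1: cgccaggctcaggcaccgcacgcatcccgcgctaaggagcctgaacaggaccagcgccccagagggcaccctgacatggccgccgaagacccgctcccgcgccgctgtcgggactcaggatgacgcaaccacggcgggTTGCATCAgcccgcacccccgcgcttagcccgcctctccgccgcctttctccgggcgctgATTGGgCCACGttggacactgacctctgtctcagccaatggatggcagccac
Of the 9 members with an ERSE, 6 rose with stimulation in KO-labelled and in WT cells (Hspa5, Hsp90b1, Calr, Canx, Creld2 and Pdia6). Dnajc3 fell in both, and Syvn1 and Derl3 fell in KO-labelled cells. Of the 19 members with a matched promoter and no ERSE, 12 rose and 5 fell in KO-labelled cells. In WT cells 8 of those 19 rose and 6 fell. Of all tested genes, 39.3 percent were called higher and 42.4 percent lower in KO-labelled cells. These shares were 34.5 and 38.8 percent in WT cells. With XCT790, 3 of the 9 were higher than in stimulated KO-labelled cells (Calr, Pdia6 and Syvn1) and 8 of the 9 were higher than in stimulated WT cells as deposited (6.2 and 8.4 percent of all tested genes were called higher). After the subtraction 4 of the 9 were called higher in WT cells, namely Calr, Pdia6, Syvn1 and Derl3 (5.16 percent of all tested genes). Of the 19 without the ERSE, 5 were higher with XCT790 in KO-labelled cells, and 8 were higher and 1 lower in WT cells as deposited. After the subtraction those of the 19 called higher in WT cells were Pdia3, Pdia4, Xbp1, Eif2ak3 and Herpud1, and none was called lower. These are counts within the 36 members, and no test compared members with and without the motif.

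Relative to the other RNA of a library, most of the folding genes were higher with stimulation and 2 of the sensors were lower. Amounts per cell were not measured. Of the 36 members, 26 rose and 8 fell in KO-labelled cells and 19 rose and 7 fell in WT cells, at an adjusted p under 0.05 over 12332 genes. Most genes of the genome moved too: 81.7 percent of all tested genes were called in KO-labelled cells and 73.3 percent in WT cells. The share of members called, 94.4 percent in KO-labelled cells and 72.2 percent in WT cells, was thus close to the background in WT cells. Higher calls made up 72.2 percent of the members and 39.3 percent of all genes in KO-labelled cells, and 52.8 percent and 34.5 percent in WT cells. Lower calls made up 42.4 percent of all genes in KO-labelled cells and 38.8 percent in WT cells. Against a fold of 1.5 (glmTreat), 22 members were called in KO-labelled cells (58.5 percent of all genes) and 15 in WT cells (41.9 percent). The median log2 fold change of the members was 0.65 in KO-labelled cells and 0.37 in WT cells, against -0.07 and -0.11 over all tested genes. After the subtraction 21 members rose and 8 fell in WT cells, with a median of 0.50 (80.7 percent of all genes called, median -0.14), and Hspa13, Sec61b and Derl3 were called besides. Markers of other cells fell as well. The 18 myeloid and dendritic cell markers summed to 29.1 to 64.2 CPM in stimulated and 1114 to 2793 CPM in unstimulated KO-labelled cells, and to 668 to 1990 CPM and 3024 to 5060 CPM in WT cells. The 12 B cell markers summed to 182 to 981 CPM in stimulated and 862 to 2815 CPM in unstimulated KO-labelled cells, and to 355 to 812 CPM and 1052 to 1843 CPM in WT cells. The part of these cells in the changes of the members was not tested. All 19 members that rose in WT cells were among the 26 that rose in KO-labelled cells. The genes that fell in both genotypes were 6 of the 8 in KO-labelled cells and 6 of the 7 in WT cells, namely Dnajb9, Dnajc3, Ern1, Eif2ak3, Ppp1r15a and Herpud1. Scaling moved these splits, to 19 higher and 11 lower in KO-labelled cells with library totals and to 14 higher and 10 lower in WT cells with upper-quartile factors. These scalings shifted the all-gene median log2 fold change by -0.33 and -0.22.

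**Figure D1:**
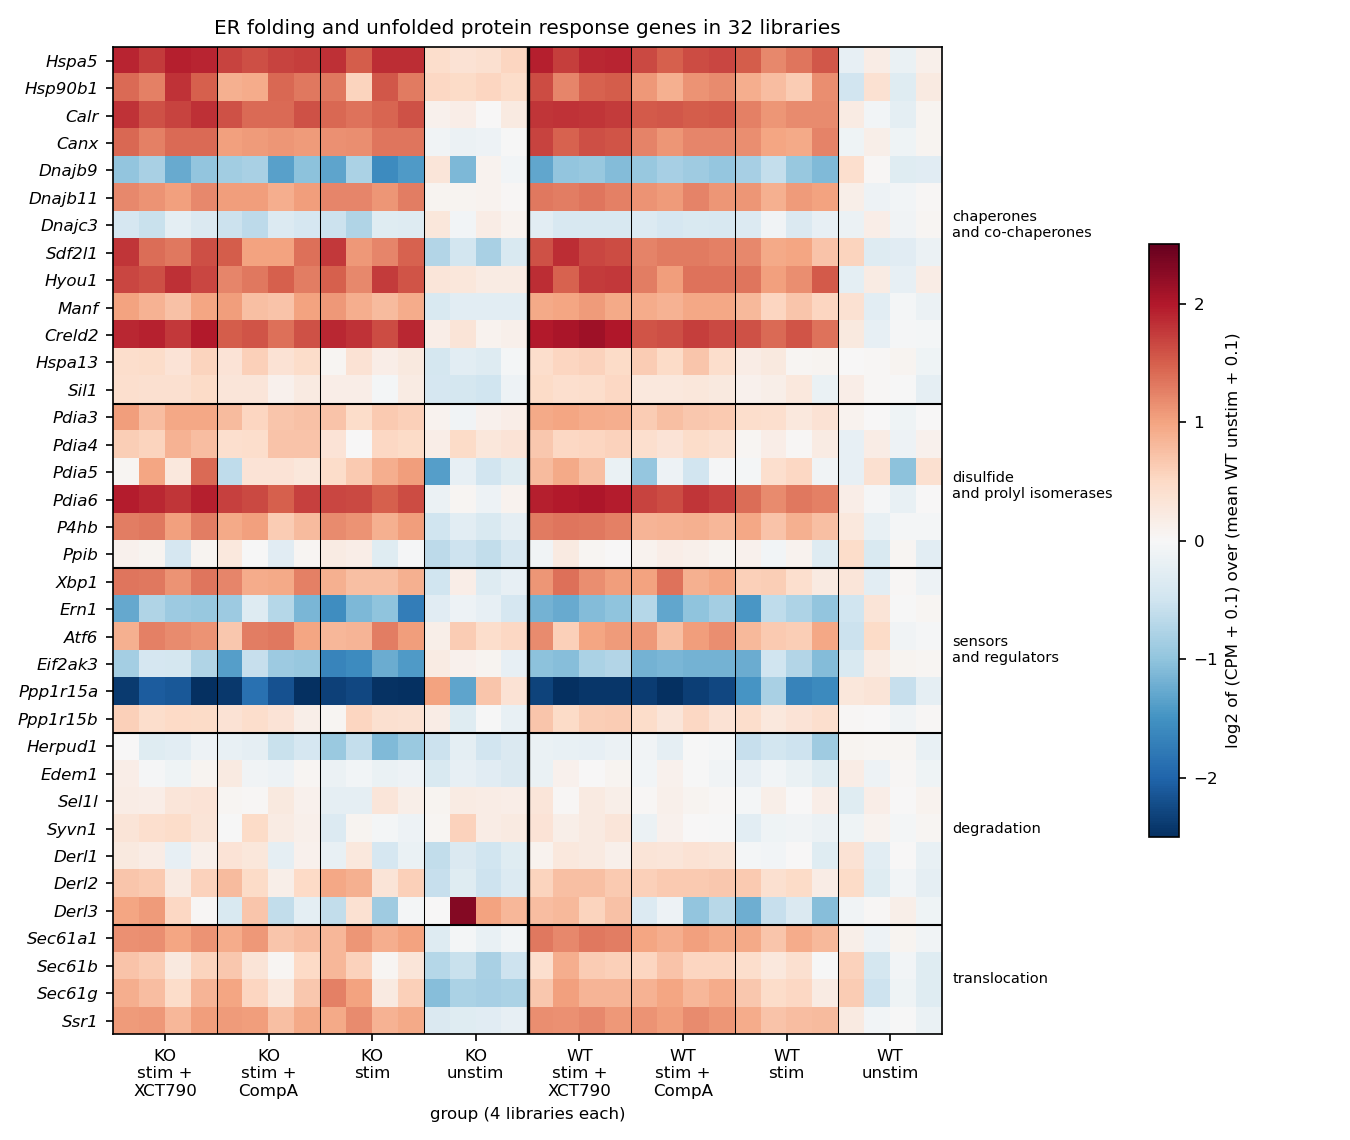
Levels of the 36 members in the 32 libraries, as log2 of (CPM + 0.1) over (the mean CPM of unstimulated WT cells + 0.1), with rows ordered by role and columns by group; values beyond the ends of the colour bar take the end colours. Red blocks of chaperones, isomerases and translocation genes fill the stimulated groups, while Dnajb9, Ern1, Eif2ak3 and Ppp1r15a are blue there, and 1 unstimulated KO-labelled library is dark red for Derl3.

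Among the chaperones, Hspa5 (chr2:34771970-34777547), the ER's main Hsp70 and a brake on the sensors, had 1622, 1315, 1636 and 1638 CPM in stimulated KO-labelled cells and 622, 584, 608 and 668 CPM in unstimulated KO-labelled cells. In WT cells it had 1307, 1057, 1150 and 1336 CPM when stimulated and 398, 523, 408 and 502 CPM when unstimulated. Every stimulated library of a genotype thus lay above every unstimulated one, with a 2.502-fold rise in KO-labelled cells (log2 fold change 1.32, SE 0.09, adjusted p = 1.83e-13) and a 2.65-fold rise in WT cells (1.41, SE 0.09, adjusted p = 1.15e-13). The groups of Hsp90b1 (chr10:86690209-86705509), the ER's Hsp90, were less far apart. It had 672, 395, 786 and 662 CPM in stimulated KO-labelled cells against 384, 377, 390 and 370 CPM in unstimulated ones, and 504, 461, 421 and 604 CPM in stimulated WT cells against 193, 350, 219 and 316 CPM in unstimulated ones. Replicate 2 of the stimulated KO-labelled cells lay just above the unstimulated libraries, and the rise of 1.65-fold in KO-labelled cells was not called with library totals (an antisense gene, 1810014B01Rik, overlaps Hsp90b1, and counting by strand is not stated).

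Creld2 and Sdf2l1 rose most among the co-chaperones of KO-labelled cells. Creld2 (chr15:88819646-88826683), a disulfide-handling protein induced by ER stress, had 88.8, 83.9, 75.1 and 88.9 CPM in stimulated KO-labelled cells against 27.0, 29.9, 25.6 and 26.4 CPM in unstimulated ones. WT cells had 72.9, 64.4, 72.1 and 61.9 CPM when stimulated and 28.7, 20.8, 23.4 and 23.4 CPM when unstimulated, and the rise was 3.09-fold in KO-labelled and 2.82-fold in WT cells. Sdf2l1 (chr16:17130138-17132383), which keeps BiP's client proteins soluble, had 139, 86.6, 94.9 and 114 CPM in stimulated KO-labelled cells against 24.6, 29.8, 23.4 and 31.3 CPM in unstimulated ones. In WT cells it had 94.6, 79.3, 80.7 and 67.1 CPM when stimulated against 60.5, 32.9, 33.6 and 36.7 CPM when unstimulated. No groups overlapped, but replicate 1 of the unstimulated WT cells stood well above the other 3, and the rise was 3.98-fold in KO-labelled cells and 1.97-fold in WT cells. Manf (chr9:106838312-106891979), a secreted cofactor of BiP, had 251, 222, 205 and 225 CPM in stimulated KO-labelled cells against 90.9, 98.3, 97.9 and 98.6 CPM in unstimulated ones, and 208, 170, 191 and 171 CPM against 153, 97.8, 114 and 107 CPM in WT cells. Its stimulated libraries were all higher than its unstimulated ones in both genotypes, although Manf overlaps Rbm15b on the same strand over 6511 bases and the genes may share reads.

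The lectin chaperones rose as well. Calr averaged 1672 ± 118 CPM in stimulated and 661 ± 40.8 CPM in unstimulated KO-labelled cells, and 1379 ± 60.1 and 607 ± 80.3 CPM in WT cells. Canx averaged 948 ± 69.8 and 374 ± 15.0 CPM in KO-labelled cells, and 852 ± 83.1 and 399 ± 34.9 CPM in WT cells (SD, n = 4 each), stimulated before unstimulated in each pair. Dnajb11 and Hyou1, a co-chaperone and a nucleotide exchange factor of BiP, rose 2.22-fold and 2.41-fold in KO-labelled cells and 2.02-fold and 2.43-fold in WT cells. Hspa13 and the exchange factor Sil1 rose 1.38-fold and 1.41-fold in KO-labelled cells, and in WT cells their log2 fold changes missed the threshold as deposited, while Hspa13 passed it after the subtraction (0.20, adjusted p = 0.0413). In all, 11 of the 13 chaperones rose in KO-labelled cells and 9 of 13 in WT cells (10 after the subtraction). The shares of all tested genes called higher were 39.3 percent and 34.5 percent (37.3 percent after the subtraction).

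The exceptions among the 13 were Dnajb9 and Dnajc3, both co-chaperones of BiP that are known targets of IRE1 and XBP1. Dnajb9 (chr12:44205559-44210326) had 26.2, 37.6, 22.1 and 24.6 CPM in stimulated KO-labelled cells against 80.7, 30.2, 69.4 and 62.1 CPM in unstimulated ones, and 36.7, 43.1, 33.9 and 30.3 CPM in stimulated WT cells against 88.1, 67.0, 52.8 and 54.1 CPM in unstimulated ones. Unstimulated replicate 2 of the KO-labelled cells lay within the stimulated range, and the other 3 lay above it. The fall was 2.20-fold in KO-labelled cells (log2 fold change -1.14, SE 0.21, adjusted p = 1.35e-05) and 1.82-fold in WT cells (-0.86, SE 0.21, adjusted p = 5.11e-04). Dnajc3 fell 1.505-fold in KO-labelled cells and 1.182-fold in WT cells, where the call was lost when 1 of 4 libraries was left out (replicates 1 and 2 of the unstimulated and 1 and 3 of the stimulated WT cells, each in turn).

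**Figure D2:**
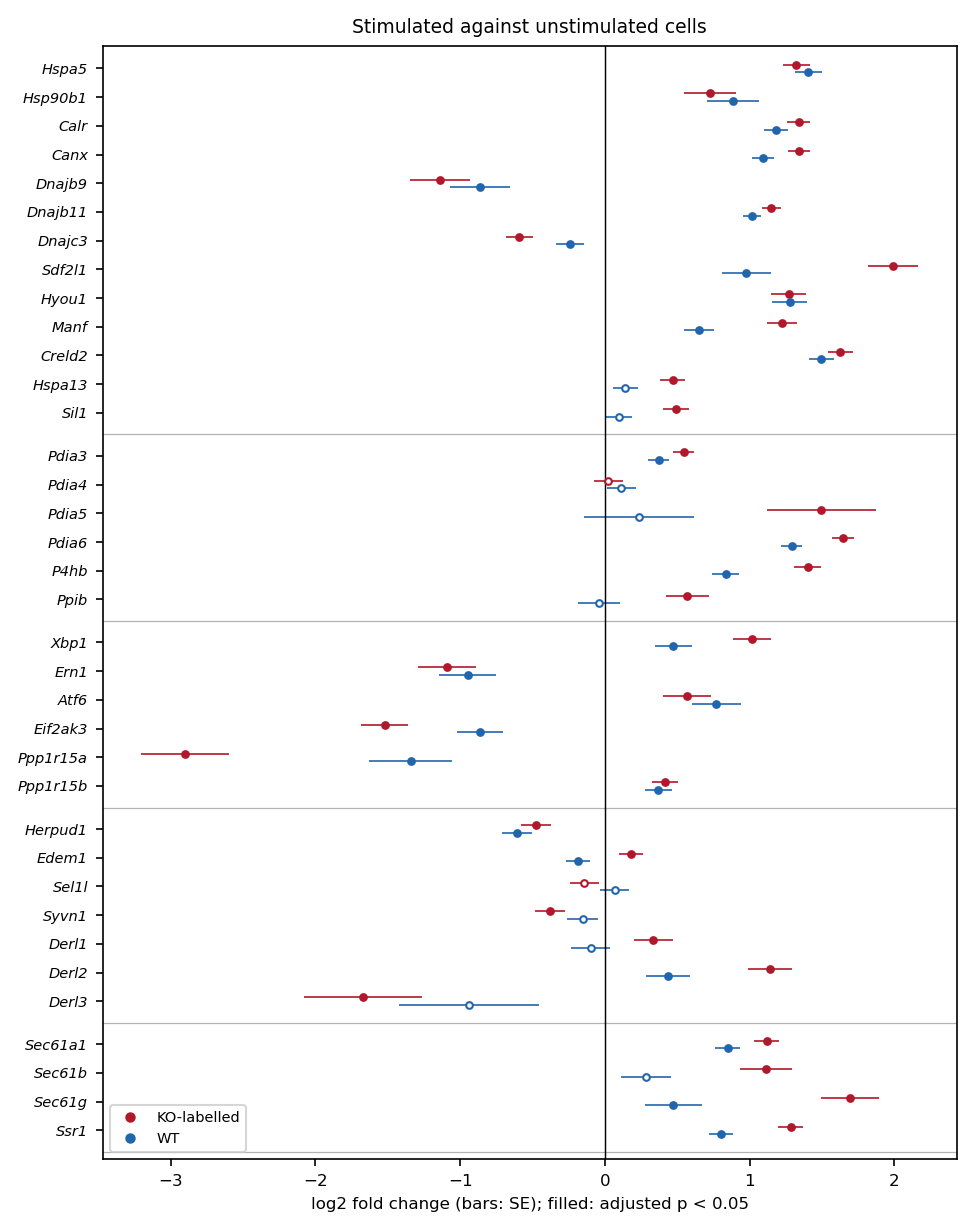
Log2 fold change of each member, stimulated against unstimulated cells, in KO-labelled cells (red) and WT cells (blue), with bars of 1 SE and filled points at an adjusted p under 0.05. Most folding genes and all translocation genes lie right of 0, up to 1.99 for Sdf2l1 in KO-labelled cells. The chaperones Dnajb9 and Dnajc3 lie left of 0, and Ppp1r15a lies farthest left, at -2.90 in KO-labelled and -1.34 in WT cells.

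The disulfide isomerases did not move as 1 block. Pdia6 (chr12:17266545-17284770), which also acts on the sensors' disulfides, had 453, 446, 400.1 and 440 CPM in stimulated KO-labelled cells against 128, 147, 130 and 150 CPM in unstimulated ones, and 373, 322, 353 and 338 CPM in stimulated WT cells against 159, 139, 125 and 143 CPM in unstimulated ones. The groups were far apart, and the rise was 3.13-fold in KO-labelled and 2.45-fold in WT cells. Pdia4 (chr6:47796141-47813430) had 161, 129, 182 and 178 CPM in stimulated KO-labelled cells against 144, 179, 156 and 162 CPM in unstimulated ones, and 132, 144, 131 and 146 CPM in stimulated WT cells against 110, 146, 117 and 138 CPM in unstimulated ones. These groups overlapped, and Pdia4 was not called in either genotype (log2 fold change 0.02 with SE 0.10 in KO-labelled cells). P4hb, which is also a subunit of prolyl hydroxylases, rose 2.64-fold and 1.79-fold in KO-labelled and WT cells, and Pdia3, the partner of the lectins, rose 1.46-fold and 1.29-fold. The prolyl isomerase Ppib rose in KO-labelled cells alone at the threshold, by 1.49-fold. Pdia5 was rare, at 0.195 to 1.94 CPM over all libraries, and was called higher in KO-labelled cells (2.82-fold, adjusted p = 6.52e-04) and not in WT cells.

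Per length of exon, Calr was the most abundant member in stimulated cells, with 580 CPM per kb in KO-labelled and 479 CPM per kb in WT cells, followed by Hspa5 with 367 and 287 CPM per kb. Derl3, Pdia5 and Ern1 were the least abundant, each under 0.6 CPM per kb in stimulated cells of either genotype. The other members lay between 1.69 and 273 CPM per kb in stimulated KO-labelled cells.

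Of the regulators, Xbp1 and Atf6 rose while Ern1 and Eif2ak3 fell. Xbp1 (chr11:5520659-5525893) had 164, 150, 149 and 166 CPM in stimulated KO-labelled cells against 63.3, 99.4, 71.1 and 77.0 CPM in unstimulated ones, and 134, 137, 119 and 105 CPM in stimulated WT cells against 110, 73.8, 90.6 and 81.5 CPM in unstimulated ones. The WT groups overlapped by 1 library, and the rise was 2.03-fold in KO-labelled cells (adjusted p = 4.37e-08) and 1.39-fold in WT cells (adjusted p = 0.00192). Atf6 (chr1:170704674-170867771) had 41.1, 42.2, 56.4 and 47.9 CPM in stimulated KO-labelled cells against 25.6, 35.9, 31.7 and 33.5 CPM in unstimulated ones, and 40.8, 36.6, 35.7 and 45.4 CPM in stimulated WT cells against 16.0, 32.2, 21.9 and 22.7 CPM in unstimulated ones. Groups did not overlap in either genotype, but the call in KO-labelled cells was lost with upper-quartile factors and with library totals.

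Ern1 (chr11:106394650-106487852), the IRE1 gene, was a low-level transcript with 3.06, 4.20, 4.55 and 2.70 CPM in stimulated KO-labelled cells against 7.58, 8.43, 7.97 and 6.80 CPM in unstimulated ones. WT cells had 3.28, 5.88, 5.34 and 4.57 CPM when stimulated and 6.495, 11.6, 9.17 and 9.56 CPM when unstimulated. Eif2ak3 (chr6:70844515-70905245), the PERK gene, had 8.96, 9.39, 11.8 and 10.51 CPM in stimulated KO-labelled cells against 32.7, 30.4, 29.4 and 24.3 CPM in unstimulated ones, and 11.9, 20.01, 16.9 and 13.3 CPM in stimulated WT cells against 21.5, 32.7, 29.5 and 29.0 CPM in unstimulated ones. Every stimulated library was lower for both sensors. Ern1 fell 2.13-fold in KO-labelled and 1.93-fold in WT cells, and Eif2ak3 fell 2.87-fold and 1.81-fold.

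The 2 regulatory subunits that reverse PERK's action on translation moved apart. Ppp1r15a (chr7:45522916-45526268), the stress-inducible one, had 34.0, 35.4, 30.8 and 22.5 CPM in stimulated KO-labelled cells against 347, 69.0, 278 and 220 CPM in unstimulated ones. WT cells had 62.0, 98.3, 53.9 and 57.1 CPM when stimulated against 209, 216, 115 and 148 CPM when unstimulated. No groups overlapped, and replicate 2 of the unstimulated KO-labelled cells was far below the other 3. The fall was 7.46-fold in KO-labelled cells (log2 fold change -2.90, SE 0.30, adjusted p = 8.27e-10) and 2.53-fold in WT cells (-1.34, SE 0.29, adjusted p = 1.49e-04). Without the run of KO-labelled libraries that holds replicate 2, the log2 fold change in KO-labelled cells was -3.28. After the unstimulated share was subtracted from the WT stimulated libraries, Ppp1r15a had 26.0, 23.1, 26.4 and 34.3 CPM there and its log2 fold change in WT cells was -2.65. The constitutive Ppp1r15b rose 1.33-fold in KO-labelled and 1.29-fold in WT cells, and neither call held with upper-quartile factors.

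Of the 7 degradation genes, 3 were higher and 3 lower in KO-labelled cells and 1 was higher and 2 lower in WT cells (1 and 3 after the subtraction). Among all tested genes, 39.3 percent were called higher and 42.4 percent lower in KO-labelled cells. In WT cells these shares were 34.5 and 38.8 percent (37.3 and 43.3 percent after the subtraction). Herpud1 (chr8:94386438-94395377), a scaffold of the retrotranslocation complex, had 50.9, 64.5, 45.1 and 51.2 CPM in stimulated KO-labelled cells against 67.2, 81.9, 69.6 and 75.3 CPM in unstimulated ones, and 65.2, 70.1, 67.4 and 52.2 CPM in stimulated WT cells against 102, 101, 99.8 and 85.3 CPM in unstimulated ones. It fell 1.39-fold in KO-labelled and 1.52-fold in WT cells, with no overlap. Edem1 (chr6:108828641-108859356), which trims mannose from misfolded glycoproteins, had 247, 260, 244 and 250.1 CPM in stimulated KO-labelled cells against 209, 235, 225 and 212 CPM in unstimulated ones, and 236, 258, 243 and 221 CPM in stimulated WT cells against 310.2, 248.5, 278 and 251 CPM in unstimulated ones. It was called higher in KO-labelled cells (log2 fold change 0.18, adjusted p = 0.0436) and lower in WT cells (-0.18, adjusted p = 0.0479), and the sign in KO-labelled cells flipped with upper-quartile factors and library totals. Derl2, a derlin of the retrotranslocation channel, averaged 102 ± 19.9 and 46.2 ± 4.45 CPM in stimulated and unstimulated KO-labelled cells and 84.0 ± 11.4 and 62.1 ± 16.3 CPM in WT cells, and rose 2.21-fold and 1.35-fold (Mis12, on the other strand, overlaps it). Its paralog Derl3 (chr10:75893413-75895941) was rare, with 0.322, 0.741, 0.25 and 0.523 CPM in stimulated KO-labelled cells against 0.547, 3.07, 1.20 and 1.05 CPM in unstimulated ones. The high library was replicate 2, whose 9 plasma cell markers summed to 545 CPM against 133 to 241 CPM in the other 3, and the share of other cells in the Derl3 counts was not tested. In WT cells Derl3 had 0.176, 0.330, 0.399 and 0.210 CPM when stimulated and 0.509, 0.559, 0.611 and 0.501 CPM when unstimulated, and it was called lower only after the subtraction (log2 fold change -1.65, adjusted p = 0.00938). The ubiquitin ligase Syvn1 fell 1.30-fold in KO-labelled cells, its adaptor Sel1l was not called, and Derl1 rose 1.26-fold in KO-labelled cells.

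All 4 translocation genes rose in KO-labelled cells and 3 of 4 in WT cells (4 after the subtraction). Higher calls made up 39.3 percent of all tested genes in KO-labelled and 34.5 percent in WT cells (37.3 percent after the subtraction). Sec61b (chr4:47474658-47483242), the small beta subunit of the channel, had 182, 152, 106 and 127 CPM in stimulated KO-labelled cells against 62.5, 69.7, 57.9 and 71.3 CPM in unstimulated ones, and 138, 123, 136 and 101 CPM in stimulated WT cells against 152, 75.4, 97.8 and 83.2 CPM in unstimulated ones. It rose 2.17-fold in KO-labelled cells, while the WT groups overlapped through unstimulated replicate 1, the highest of the 8, and the gene was called there only after the subtraction (log2 fold change 0.42, adjusted p = 0.0311). Ssr1 (chr13:37966605-37994217), of the translocon-associated complex, had 369, 434, 349 and 370 CPM in stimulated KO-labelled cells against 148, 155, 156 and 165 CPM in unstimulated ones, and 363, 314, 327 and 330 CPM in stimulated WT cells against 222, 181, 189 and 171 CPM in unstimulated ones. Its groups stood apart, with a 2.44-fold and a 1.75-fold rise. The pore subunit Sec61a1 rose 2.17-fold in KO-labelled and 1.80-fold in WT cells, and Sec61g rose 3.24-fold and 1.39-fold, the last a call that was lost without any of 5 single WT libraries.

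**Figure D3:**
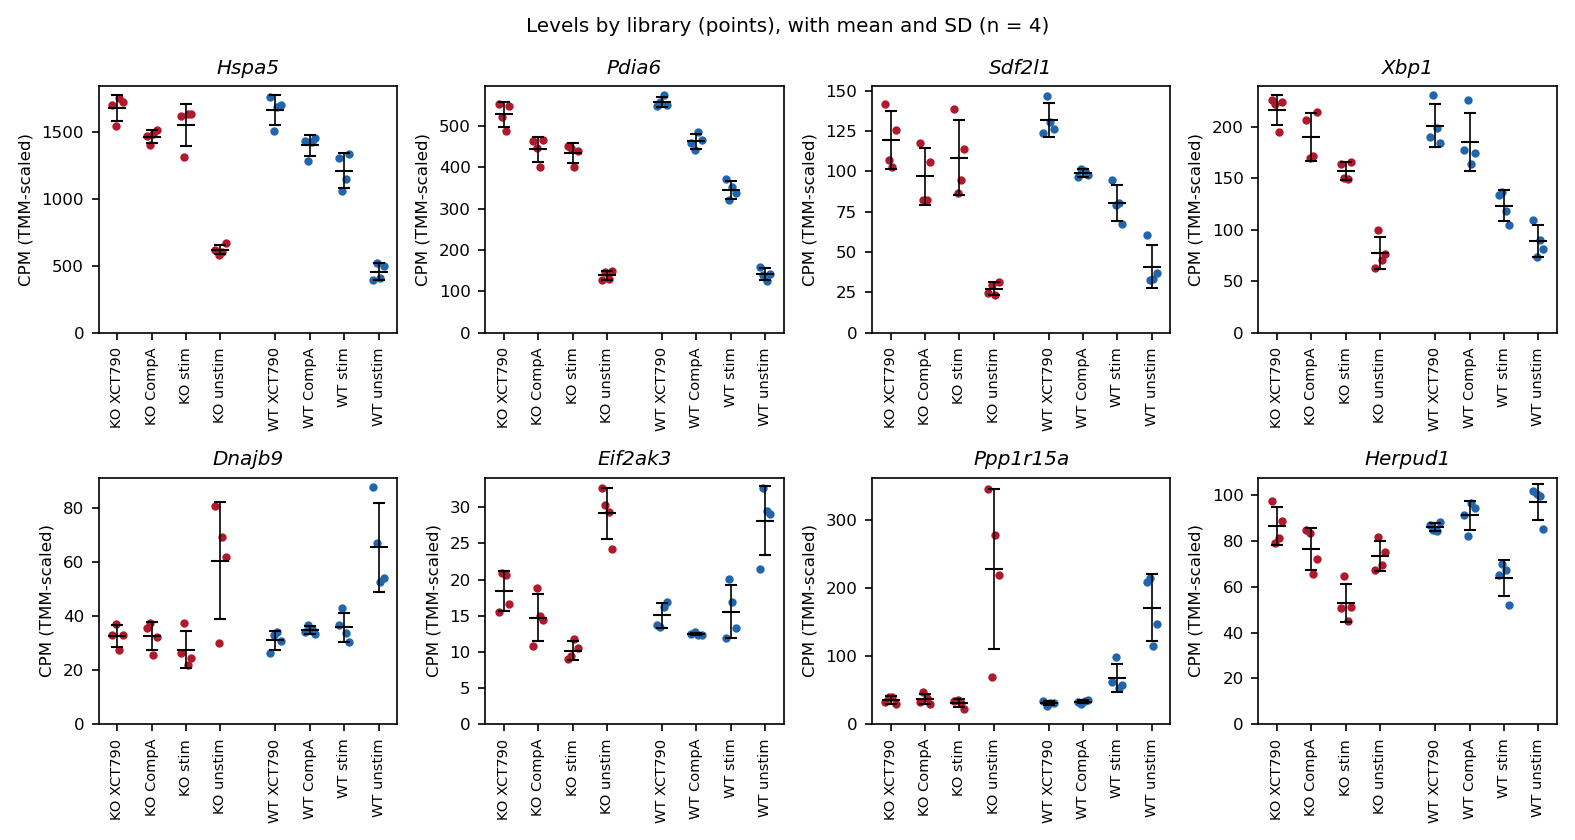
Levels in CPM of 8 members by library, with the mean and SD of 4 libraries as bars, KO-labelled groups in red and WT groups in blue. The upper row shows members higher in stimulated than in unstimulated cells, such as Pdia6 with group means of 435 to 528 CPM in stimulated KO-labelled groups against 139 CPM unstimulated, and the lower row shows members that fell with stimulation.

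Each compound was also set against unstimulated cells. Against unstimulated cells of the same genotype, 28 members were higher and 5 lower with XCT790 in KO-labelled cells (79.1 percent of all genes called) and 24 higher and 5 lower in WT cells (79.1 percent). With CompA the counts were 26 higher and 6 lower in KO-labelled cells (78.4 percent) and 24 higher and 5 lower in WT cells (78.3 percent), and 20 members passed the 1.5-fold test with CompA in KO-labelled cells (52.3 percent of all). The split with CompA was 21 higher and 9 lower in KO-labelled cells with library totals and 19 higher and 8 lower in WT cells with upper-quartile factors. Dnajb9, Dnajc3, Ern1, Eif2ak3 and Ppp1r15a were lower in all 4 of these comparisons, and Derl3 was also lower with CompA in KO-labelled cells. Herpud1, which fell with stimulation alone, was not lower in any of the 4 and was called higher with XCT790 in KO-labelled cells (1.179-fold, adjusted p = 0.0385). These comparisons share the unstimulated libraries with the comparison of stimulated with unstimulated cells.

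XCT790 was then set against stimulation alone, to ask what the compound changed in activated cells. In KO-labelled cells 9 members were higher and 0 lower (11.3 percent of all tested genes called in either direction, 6.2 percent higher and 5.07 percent lower), and they came from 4 of the 5 roles. The 9 were Calr and Sil1, the isomerases Pdia3, Pdia4 and Pdia6, the regulators Xbp1 and Eif2ak3, and the degradation genes Herpud1 and Syvn1. When only the 2 groups were fitted, Xbp1, Eif2ak3 and Herpud1 kept their call in KO-labelled cells. Calr, Sil1, Pdia3, Pdia4, Pdia6 and Syvn1 lost it. In WT cells 21 members were higher and 1 lower (28.6 percent of all called, 8.4 percent higher and 20.2 percent lower). After subtraction of the unstimulated share, 11 members were higher in WT cells and 0 lower (8.4 percent of all), and these 11 held all 9 that were called in KO-labelled cells, with Hspa13 and Derl3 besides. As deposited, 8 of the 9 in KO-labelled cells were among the 21 in WT cells. Changes were small: the member median was 0.17 in KO-labelled cells and 0.38 in WT cells (0.22 after subtraction) against 0.02 and -0.01 for all genes. With edgeR's test against a fold of 1.5, 0 members were called in KO-labelled cells (0.162 percent of all genes; 9 members by the usual call and 12 at its unadjusted p under 0.05) and 1, Derl3, in WT cells (11.5 percent).

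Herpud1 had the smallest adjusted p in KO-labelled cells. It had 97.6, 79.0, 81.2 and 88.8 CPM with XCT790 in KO-labelled cells against 50.9, 64.5, 45.1 and 51.2 CPM with stimulation alone, a 1.64-fold difference (log2 fold change 0.71, SE 0.10, adjusted p = 1.23e-04). WT cells had 86.9, 84.7, 84.3 and 88.1 CPM with XCT790 against 65.2, 70.1, 67.4 and 52.2 CPM, a 1.35-fold difference (adjusted p = 0.002). In both genotypes every XCT790 library was above every stimulated one. Eif2ak3 had 15.49, 20.9, 20.6 and 16.6 CPM with XCT790 in KO-labelled cells against 8.96, 9.39, 11.8 and 10.51 CPM with stimulation alone, 1.81-fold higher (adjusted p = 0.0012). In WT cells it had 13.7, 13.5, 16.2 and 16.9 CPM against 11.9, 20.01, 16.9 and 13.3 CPM, which overlapped, and after subtraction its log2 fold change of -0.04 became 0.51 (adjusted p = 0.0298).

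Xbp1 was higher with XCT790 in both genotypes. It had 226, 222, 195 and 224 CPM with XCT790 in KO-labelled cells against 164, 150, 149 and 166 CPM, and 190, 231, 199 and 185 CPM in WT cells against 134, 137, 119 and 105 CPM. No libraries overlapped, and Xbp1 was 1.38-fold higher in KO-labelled cells (adjusted p = 0.0194, a call lost without XCT790 replicate 1) and 1.63-fold higher in WT cells (adjusted p = 1e-04). Irf4, a transcription factor of activated T cells that is also a plasma cell marker, averaged 1806 ± 107 CPM with XCT790 in KO-labelled cells and 1531 ± 251 CPM with stimulation alone, and its part in the Xbp1 values was not tested. Pdia6 averaged 528 ± 30.4 CPM with XCT790 and 435 ± 23.6 CPM without it in KO-labelled cells, and 558 ± 12.0 and 347 ± 21.8 CPM in WT cells (SD, n = 4 each). Pdia4, which stimulation alone had not raised, had 196, 188, 235 and 218 CPM with XCT790 in KO-labelled cells and 205, 183, 186 and 191 CPM in WT cells, above every library with stimulation alone. It was 1.28-fold higher in KO-labelled cells (adjusted p = 0.0201) and 1.38-fold higher in WT cells (adjusted p = 7.06e-04).

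Calr was called higher with XCT790 in WT cells after the subtraction too (log2 fold change 0.29, adjusted p = 0.0211), and several other abundant chaperones were called only as deposited. Hspa5 had 1702, 1545, 1758 and 1724 CPM with XCT790 in KO-labelled cells, overlapping stimulation alone, and 1765, 1507, 1688 and 1704 CPM in WT cells, above all 4 stimulated WT libraries (1.37-fold, adjusted p = 2.55e-04). After subtraction the WT stimulated libraries had 1567, 1372, 1480 and 1612 CPM of Hspa5 and the difference was no longer called. Hsp90b1, Canx, Dnajb11, Sdf2l1, Hyou1, Manf, Creld2, P4hb, Sec61a1 and Ssr1 likewise lost their call after subtraction. Creld2 had 95.7, 100, 105 and 96.7 CPM with XCT790 in WT cells against 72.9, 64.4, 72.1 and 61.9 CPM with stimulation alone, 1.47-fold higher as deposited, while in KO-labelled cells its libraries with XCT790 (88.6, 91.6, 82.1 and 95.4 CPM) overlapped those without. Derl3 had 1.175, 1.24, 0.822 and 0.563 CPM with XCT790 in KO-labelled cells and 0.995, 1.03, 0.852 and 0.965 CPM in WT cells. The WT groups did not overlap, and the fitted fold of 3.36 (adjusted p = 0.00433) rests on few counts.

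Ppp1r15a was the 1 member lower with XCT790 in WT cells. It had 34.6, 27.2, 31.6 and 31.6 CPM with XCT790 in WT cells against 62.0, 98.3, 53.9 and 57.1 CPM with stimulation alone, 2.17-fold lower (adjusted p = 0.00377), and 32.7, 40.4, 39.4 and 29.3 CPM with XCT790 in KO-labelled cells, which overlapped stimulation alone. With the unstimulated share subtracted the WT log2 fold change of -1.12 became 0.17 (adjusted p = 0.783).

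With TMM scaling and no block for the run, fewer members were called with CompA than with XCT790 when each was compared with the same stimulated cells. The values of CompA stand beside those of XCT790. In KO-labelled cells 4 members were higher and 2 lower (19.3 percent of all tested genes called, 10.2 percent higher and 9.11 percent lower), a share of 16.7 percent that was below the background. The run of 4 library numbers pairs the KO-labelled libraries, and with the run as a block the count was 5 higher and 5 lower. It was 2 higher and 1 lower without the run that holds replicate 2. The shares of all genes called with the block and without that run are not given here. In WT cells 10 were higher and 1 lower (32.8 percent of all, 11.6 percent higher and 21.3 percent lower), a share of 30.6 percent, and 5 higher and 3 lower after subtraction (23.8 percent of all). Against a fold of 1.5, edgeR called 0 members in either genotype (0.324 percent of all in KO-labelled and 11.5 percent in WT cells). In KO-labelled cells the split was 3 and 3 with the size factors of DESeq2 and 8 and 2 with library totals. With library totals XCT790 had 8 higher and 0 lower in KO-labelled cells, so the order of the compounds there depended on the scaling.

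**Figure D4:**
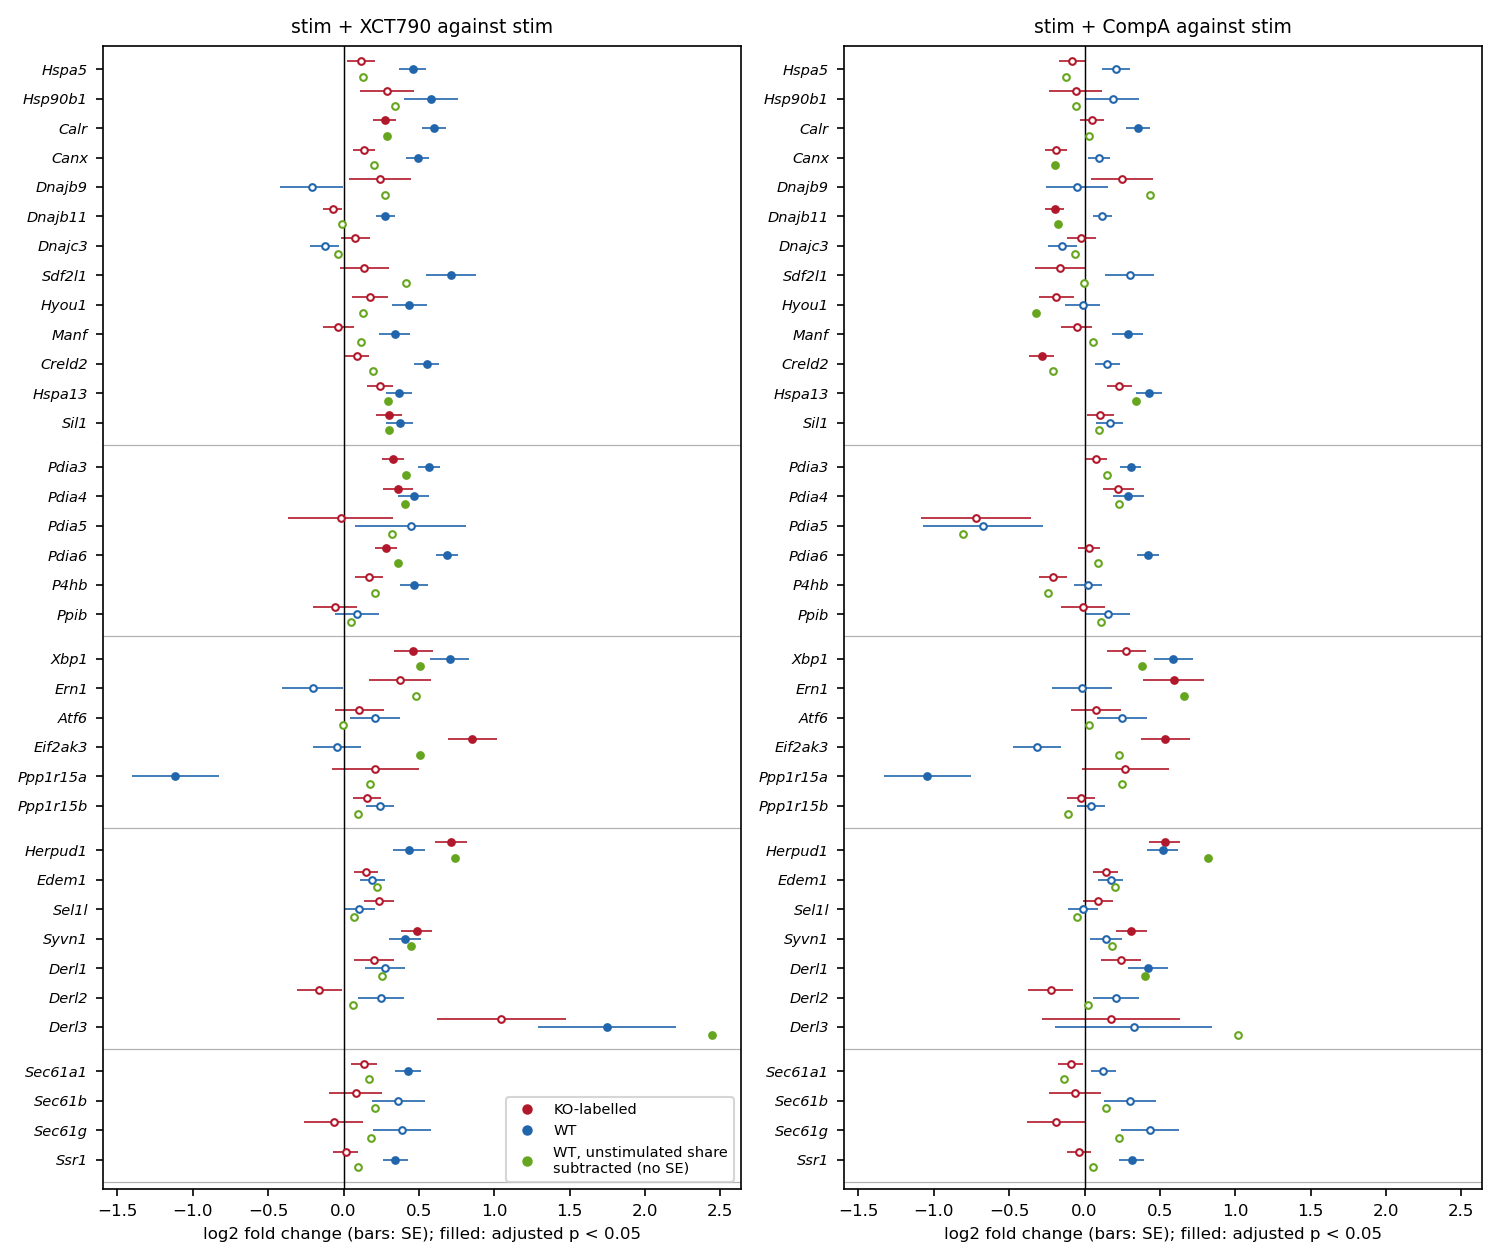
Log2 fold change of each member with XCT790 (left) or CompA (right) against stimulation alone, in KO-labelled cells (red), WT cells as deposited (blue) and WT cells after subtraction of the unstimulated share (green, without SE), with bars of 1 SE and filled points at an adjusted p under 0.05. Green points lie closer to red than to blue for most members, for example Ppp1r15a with XCT790 at 0.17 (green) against -1.12 (blue).

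Herpud1 was the only member called higher with CompA in both genotypes as deposited. It had 84.8, 83.3, 65.7 and 72.2 CPM with CompA in KO-labelled cells and 91.6, 82.4, 96.7 and 94.3 CPM in WT cells, each above every library with stimulation alone, by 1.45-fold (adjusted p = 7.67e-04) and 1.43-fold (adjusted p = 2.92e-04). In KO-labelled cells Eif2ak3 (10.8, 18.8, 14.9 and 14.5 CPM with CompA) and Ern1 (4.83, 7.32, 5.57 and 4.12 CPM) were also higher, by 1.45-fold and 1.51-fold, with overlapping libraries and calls that were lost when some single libraries were left out. Creld2 was lower with CompA in KO-labelled cells, at 69.1, 72.0, 62.5 and 73.1 CPM against 88.8, 83.9, 75.1 and 88.9 CPM, as was Dnajb11, by 1.22-fold (adjusted p = 0.0167) and 1.15-fold (adjusted p = 0.0292). In WT cells Pdia6 had 460, 442, 486 and 467 CPM and Xbp1 178, 227, 164 and 174 CPM with CompA, which were 1.34-fold and 1.503-fold higher than with stimulation alone. Of the 2, only Xbp1 kept its call after subtraction, with a log2 fold change of 0.38 (adjusted p = 0.0396). Hspa13 averaged 49.1 ± 4.09 CPM with CompA in KO-labelled cells and 53.5 ± 4.74 CPM in WT cells, against 41.8 ± 3.68 and 39.9 ± 2.46 CPM with stimulation alone (SD, n = 4 each), and was called in WT cells (1.34-fold, adjusted p = 2.77e-04). Ppp1r15a was 2.06-fold lower with CompA in WT cells as deposited and not called after subtraction. Calr, Manf, Pdia3, Pdia4 and Ssr1 lost their higher call in WT cells likewise, Ern1 was then called higher, and Canx, Dnajb11 and Hyou1 were called lower.

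The compounds were compared with each other directly at the same dose and time, over 36 members in each genotype. In KO-labelled cells 4 members were higher and 0 lower with XCT790 (3.24 percent of all tested genes called, 1.97 percent higher and 1.27 percent lower), namely Canx, Creld2, Pdia3 and P4hb, and 7 were higher with the run as a block. In WT cells 9 were higher and 0 lower (9.41 percent of all, 4.33 percent higher and 5.08 percent lower), which were the same 4 with Calr, Hyou1, Pdia6, Derl3 and Sec61a1. Against a fold of 1.5, edgeR called 0 members in either genotype (0.0568 percent of all in KO-labelled and 0.43 percent in WT cells). This comparison uses no library of WT cells stimulated without a compound. P4hb had 905, 936, 763 and 913 CPM with XCT790 and 722, 758, 583 and 646 CPM with CompA in KO-labelled cells, and 917, 939, 933 and 897 CPM with XCT790 and 672, 684, 689 and 667 CPM with CompA in WT cells. No libraries overlapped, and P4hb was 1.30-fold higher with XCT790 in KO-labelled (adjusted p = 0.0199) and 1.36-fold in WT cells (adjusted p = 0.00223). For Canx the log2 differences were 0.33 (95 percent interval 0.17 to 0.48) in KO-labelled cells and 0.39 (0.24 to 0.55) in WT cells, and for Creld2 0.37 (0.20 to 0.54) and 0.40 (0.23 to 0.57). Each of the 36 differences had an interval, and those not called do not show that the compounds act alike: Herpud1 differed by 0.18 (-0.03 to 0.39) in KO-labelled and by -0.09 (-0.30 to 0.13) in WT cells, and Xbp1 by 0.19 (-0.08 to 0.45) and 0.12 (-0.15 to 0.38). The calls were sensitive to the fit, with 0 members in KO-labelled and 20 in WT cells (19 higher and Derl1 lower) when only the 2 groups entered it, and with 1 member in KO-labelled cells without CompA replicate 3 or without CompA replicate 4. The shares of all genes called in these fits and with the block are not given here. Their counts show only that calls moved, and not that members moved more than other genes.

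**Figure D5:**
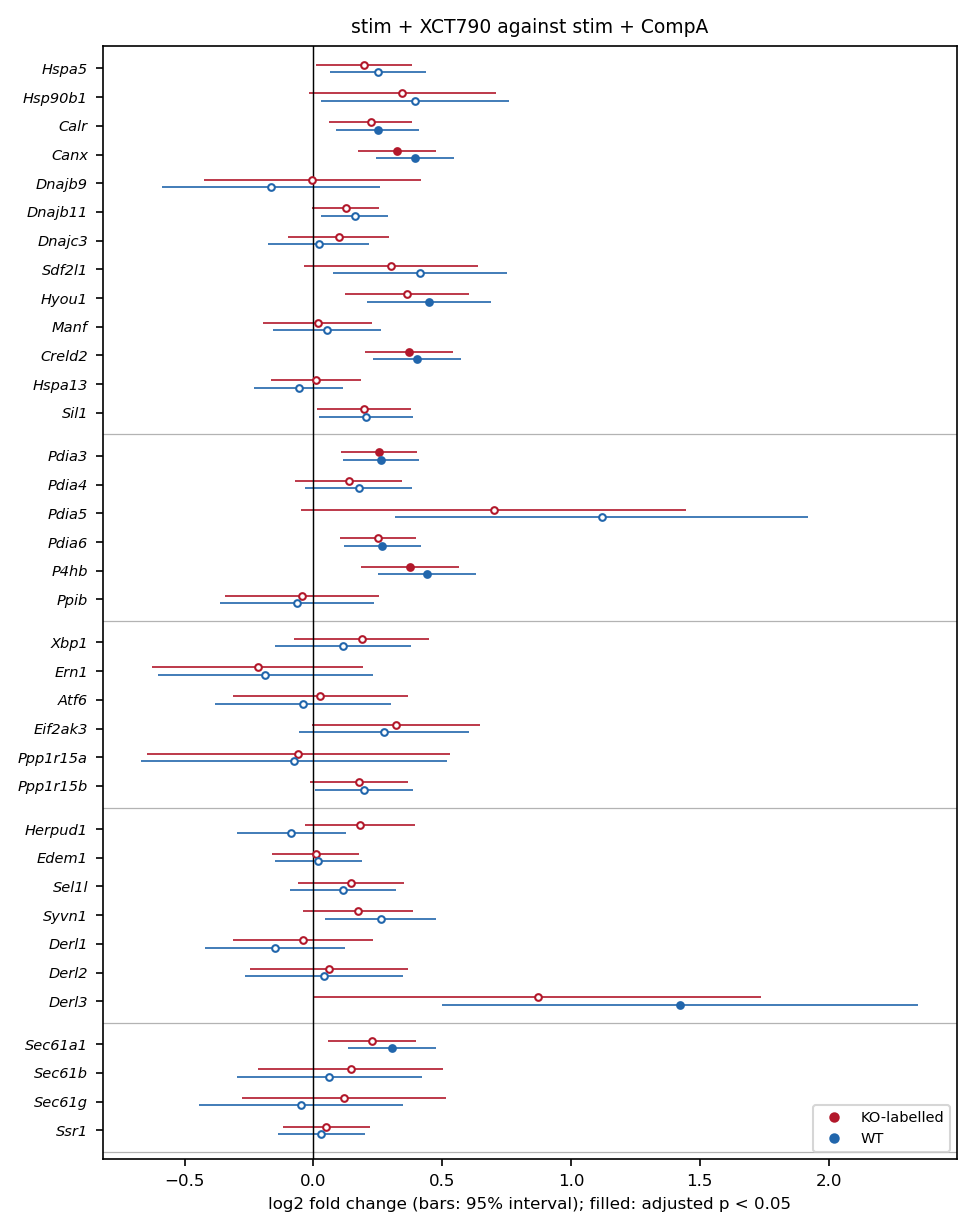
Log2 fold change of each member with XCT790 against CompA in KO-labelled cells (red) and WT cells (blue), with 95 percent intervals and filled points at an adjusted p under 0.05. Most chaperones and isomerases lie right of 0 in both genotypes, such as Creld2 at 0.37 and 0.40, while Xbp1, Ern1, Atf6 and Ppp1r15a have intervals across 0.

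KO-labelled and WT cells were compared under each condition. In unstimulated cells 6 members were higher and 13 lower in KO-labelled cells (36.1 percent of all tested genes called), and 0 passed edgeR's 1.5-fold test (2.77 percent of all). The 18 myeloid and dendritic cell markers summed to 1114 to 2793 CPM in these KO-labelled libraries and to 3024 to 5060 CPM in the WT ones, and the part of such cells in the differences was not tested. Higher were Hspa5, Hsp90b1, Pdia4, Atf6, Syvn1 and Derl3, and lower were Sdf2l1, Manf, Hspa13, Sil1, P4hb, Ppib, Herpud1, Edem1, Derl1, Derl2, Sec61b, Sec61g and Ssr1. Hspa5 was 1.36-fold higher (adjusted p = 8.6e-04) with every KO-labelled library above every WT library, and Sec61g was 1.82-fold lower (adjusted p = 0.00184, and 0.0344 without unstimulated WT replicate 1), at 33.2 ± 2.81 CPM in KO-labelled and 60.7 ± 23.3 CPM in WT cells (SD, n = 4 each). The split turned to 14 higher and 4 lower with library totals, and the all-gene median shifted by 0.21. Without unstimulated WT replicate 1, the count was 4 higher and 3 lower, and it was 1 higher and 2 lower when only the 2 groups were fitted. Derl3, at 2.66-fold higher, lost its call without unstimulated KO-labelled replicate 2, the unstimulated library with the most plasma cell marker RNA.

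In stimulated cells 8 members were higher and 2 lower in KO-labelled cells (25.2 percent of all), and none was called by edgeR after subtraction of the unstimulated share, where 1 had an unadjusted p under 0.05 (8.85 percent of all called). As deposited, 0 passed the 1.5-fold test (9.64 percent of all). Pdia6, for example, was 1.25-fold higher in KO-labelled cells as deposited (435 ± 23.6 CPM against 347 ± 21.8 CPM in WT cells), and its WT level after subtraction was 431 ± 21.4 CPM (SD, n = 4 each). Leaving out stimulated KO-labelled replicate 2 gave 17 members, and leaving out replicate 4 gave 6. With XCT790 present 0 members were called between the genotypes by edgeR (9.51 percent of all), with 2 at an unadjusted p under 0.05, 2 called by DESeq2 and 0 by limma-voom. With CompA the count was 0 by all 3 tools (7.7 percent of all by edgeR), with 2 at an unadjusted p under 0.05 by edgeR. In these 2 conditions the member log2 differences between KO-labelled and WT cells ran from -0.20 to 0.29 and from -0.26 to 0.57.

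The difference between the genotypes in their response was tested directly. For stimulation 16 members differed, 13 with a higher log2 fold change in KO-labelled cells and 3 with a lower one (33.7 percent of all tested genes). Sec61g, Sdf2l1, Sec61b and Derl2 had the largest positive differences that were called, at 1.22 (SE 0.28), 1.02 (SE 0.24), 0.83 (SE 0.25) and 0.70 (SE 0.21), and Ppp1r15a the most negative, at -1.56 (SE 0.40, adjusted p = 0.0053). After subtraction 4 members differed, Sdf2l1 (0.71), Edem1 (0.39), Sec61g (1.01) and, in the other direction, Hspa5 (-0.42), with 11.7 percent of all called. Without unstimulated WT replicate 1 the count as deposited was 7, and Sec61b and Derl2 were no longer called (adjusted p = 0.0604 and 0.057). The split for stimulation was 7 higher and 4 lower with library totals. Against a fold of 1.5, edgeR called 1 member for stimulation (5.75 percent of all), 0 for XCT790 (8.61 percent) and 0 for CompA (8 percent). For XCT790, 8 members differed, 2 higher and 6 lower (24.7 percent of all), and 14 with the run as a random block (share of all genes not given here). That split was 2 and 12 with the size factors of DESeq2 and 3 and 5 with library totals. For CompA, 7 differed, 2 higher and 5 lower (21.6 percent of all), 14 with the block, and 2 higher and 3 lower with library totals. After subtraction the count was 0 for both by edgeR, with 0 at an unadjusted p under 0.05 (0.00812 and 0.0162 percent of all called). The subtraction changes only the WT stimulated libraries and is scaled by genes that were low in the other stimulated groups. Its counts of 0 are thus no independent sign that the genotypes respond alike. The difference between XCT790 and CompA did not differ between the genotypes for any member by edgeR, DESeq2 or limma-voom, and 0 had an unadjusted p under 0.05 (0 percent of all genes called).

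Other genes of the secretory pathway were read from 5 further lists. The 33 other genes of translocation and glycosylation, all tested, had 27 higher and 3 lower with stimulation in KO-labelled cells and 21 higher and 3 lower in WT cells, with a median log2 fold change of 1.11 and 0.56. After the subtraction 23 rose and 3 fell in WT cells. Rpn1, a subunit of the oligosaccharyltransferase, averaged 471 ± 34.6 and 111 ± 11.5 CPM in stimulated and unstimulated KO-labelled cells and 360.1 ± 27.7 and 113 ± 15.9 CPM in WT cells (SD, n = 4 each). Of 38 tested genes of other ER folding factors 24 rose and 8 fell in KO-labelled cells and 14 rose and 7 fell in WT cells (18 and 9 after the subtraction). Mogs, the glucosidase that trims the first sugar of new N-glycans, rose 4.87-fold and 3.94-fold, Ero1l, the oxidase that recharges the disulfide isomerases, rose 4.26-fold in KO-labelled cells, and the thioredoxin-like Tmx4 fell 3.81-fold and 2.37-fold. The 26 other degradation genes split into 11 higher and 9 lower in KO-labelled cells and 9 higher and 10 lower in WT cells (10 and 10 after the subtraction), with Vcp, the ATPase that extracts proteins from the membrane, up 3.08-fold and 2.94-fold and the lectin Os9 down 2.00-fold and 1.603-fold. Of 25 tested genes of ER to Golgi transport 17 rose and 5 fell in KO-labelled cells and 16 rose and 3 fell in WT cells, also after the subtraction. Of all tested genes, 81.7 percent were called in KO-labelled cells and 73.3 percent in WT cells (80.7 percent after the subtraction). Higher calls alone made up 39.3 percent in KO-labelled and 34.5 percent in WT cells. In WT cells the shares called of the lists counted here were thus near or below the background. In KO-labelled cells they lay on either side of it.

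Other unfolded protein response regulators changed with both compounds. Among its 22 genes, all tested, 6 were higher and 1 lower with XCT790 than with stimulation alone in KO-labelled cells and 4 higher and 1 lower in WT cells, and 7 higher and 1 lower with CompA in each genotype. All tested genes were called in either direction at 11.3 and 28.6 percent with XCT790 in KO-labelled and WT cells and at 19.3 and 32.8 percent with CompA, so the WT shares were near or below the background as deposited. After the subtraction the WT counts were 5 and 1 with XCT790 (8.4 percent of all) and 9 and 1 with CompA (23.8 percent). Trib3, a pseudokinase induced downstream of ATF4, averaged 19.0 ± 0.624 CPM with XCT790 and 5.04 ± 3.197 CPM with stimulation alone in KO-labelled cells, and 14.0 ± 2.91 and 4.28 ± 1.53 CPM in WT cells. With CompA it averaged 20.4 ± 4.08 CPM in KO-labelled cells and 34.6 ± 8.99 CPM in WT cells (SD, n = 4 each). It was thus called higher with either compound in either genotype, by 3.28-fold to 8.07-fold, and in WT cells after the subtraction by 4.68-fold with XCT790 and 11.49-fold with CompA. Chac1, an enzyme that degrades glutathione and is another ATF4 target, averaged 11.1 ± 3.54 CPM with CompA and 0.586 ± 0.264 CPM with stimulation alone in WT cells. Trib3 was lower with XCT790 than with CompA in WT cells (log2 fold change -1.30, SE 0.28, adjusted p = 0.00263). In the same direct comparison the coat protein gene Sec24d of ER to Golgi transport was higher with XCT790 in both genotypes, at 32.3 ± 4.61 CPM against 14.0 ± 2.70 CPM with CompA in KO-labelled cells and 20.6 ± 2.61 CPM against 10.0 ± 1.47 CPM in WT cells (adjusted p = 2.6e-05 and 7.4e-05).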

How the data were processed

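The values are raw counts of reads per gene in 32 libraries, as the authors deposited them. The submitters' processing notes name Trimmomatic 0.36, HISAT2 2.1.0, SAMtools, HTSeq 0.9.1, R 3.4.4, DESeq2 1.18.1 and the build mm10. Counting by strand is not stated there, and the 5 summary lines of each file were left out. Library depth was 16020288 to 23687940 counts.

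Counts were scaled by TMM and tested with edgeR 4.0.16 (quasi-likelihood F test) in R 4.3.3, in 1 fit of all 32 libraries with 20 contrasts. Benjamini-Hochberg adjustment ran over the 12332 genes that passed filterByExpr, and the call was an adjusted p under 0.05. SE is the log2 fold change over the square root of F. The subtraction removed from each WT stimulated library the unstimulated profile of its run, scaled by 120 genes under 0.03 of their unstimulated level in the other stimulated groups. The other settings were DESeq2 1.42.0, limma 3.58.1 (voom), other scalings, no filter beyond 1 count, a 1.5-fold threshold (glmTreat), a fit of only the 2 groups, and each library left out.

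Runs of 4 consecutive library numbers were checked for pairing. Every pair of KO-labelled groups correlated by run (r of 0.186 to 0.686), and in WT cells unstimulated with stimulated (0.368 to 0.559) and XCT790 with CompA (0.17 to 0.492) did, and the other WT pairs did not. Positions are from GENCODE M21 on GRCm38, and promoters from RefSeq. All members were named, by role, with per-library values for a set of 18 and for the smallest adjusted p of each role. The members and lists were chosen with earlier results of these data known.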

Additional observations from a re-analysis of the deposited data

Results flagged for a closer look

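In 288 sets of 4 values (36 members in 8 groups), 12 values stood apart from the other 3 of their set by Dixon's test at the 95 percent level. Chance gives about 1 in 20 sets. In KO-labelled cells, Hspa5 was lowest in stimulated replicate 2 (1315 CPM, nearest 1622). With CompA, Dnajb11 was lowest in replicate 3 (181.5 CPM, nearest 199.7) and Pdia5 in replicate 1 (0.3934 CPM, nearest 0.8342). With XCT790, Ppib (303 CPM, nearest 420) and Xbp1 (195.2 CPM, nearest 221.9) were lowest in replicate 3. In unstimulated KO-labelled cells, Manf (90.93 CPM, nearest 97.91) and Sec61g (29.07 CPM, nearest 33.97) were lowest in replicate 1 and Sil1 highest in replicate 4 (21.2 CPM, nearest 17.31). In WT cells, Dnajc3 was highest in XCT790 replicate 1 (167.8 CPM, nearest 154.3) and Sec61b in CompA replicate 2 (167.5 CPM, nearest 149). Unstimulated WT cells had the highest Sdf2l1 in replicate 1 (60.49 CPM, nearest 36.72) and the lowest Herpud1 in replicate 4 (85.29 CPM, nearest 99.83).

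The change with stimulation differed between KO-labelled and WT cells, by edgeR's interaction test, for 16 members. The differences in log2 fold change, KO-labelled minus WT, were 1.22 for Sec61g, 1.02 for Sdf2l1, 0.83 for Sec61b, 0.70 for Derl2, 0.61 for Ppib, 0.58 for Manf, 0.56 for P4hb, 0.54 for Xbp1 and 0.48 for Ssr1. They were 0.40 for Sil1, 0.37 for Edem1, 0.36 for Pdia6, 0.33 for Hspa13, -0.35 for Dnajc3, -0.66 for Eif2ak3 and -1.56 for Ppp1r15a. The change with XCT790 differed for 8 members, by -0.33 for Calr, -0.36 for Canx, -0.35 for Dnajb11, -0.47 for Creld2 (-0.465), -0.41 for Pdia6, -0.33 for Ssr1, 0.90 for Eif2ak3 and 1.33 for Ppp1r15a. With CompA 7 members differed, by -0.29 for Canx, -0.31 for Dnajb11, -0.43 for Creld2, -0.39 for Pdia6, -0.35 for Ssr1, 0.85 for Eif2ak3 and 1.31 for Ppp1r15a. After the unstimulated share was subtracted from the WT stimulated libraries, the counts were 4, 0 and 0.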

How the results depend on the processing

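Of the values of single members under other settings, 13455 kept their side of the threshold (572 of them changed sign with no call under either setting), 685 lost the call, 290 gained it and 36 changed sign with a call under 1 or both settings. With the 1.5-fold threshold, stimulation kept 22 members in KO-labelled and 15 in WT cells, and CompA against unstimulated KO-labelled cells kept 20. At that threshold XCT790 against stimulation had 0 in KO-labelled and 1 in WT cells, CompA against stimulation 0 in both, XCT790 against CompA 0 in both, KO-labelled against WT 0 in unstimulated and 0 in stimulated cells, and genotype by stimulation, by XCT790 and by CompA 1, 0 and 0. With the size factors of DESeq2, 14 members differed in genotype by XCT790. With library totals, 10 were called for CompA against stimulation in KO-labelled cells. DESeq2 itself called 2 between KO-labelled and WT cells with XCT790, 14 in genotype by XCT790 and 12 in genotype by CompA.

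The replicate block of runs as a fixed term gave 10 for CompA against stimulation and 7 for XCT790 against CompA in KO-labelled cells, and as a random term gave 14 for genotype by XCT790 and 14 by CompA. Fits of only the 2 groups gave, in KO-labelled cells, 3 for XCT790 against stimulation, 1 for CompA against stimulation and 0 for XCT790 against CompA, in WT cells 20 for XCT790 against CompA, and 3 between KO-labelled and WT cells both unstimulated and stimulated. With the unstimulated share subtracted, counts were 11 for XCT790 against stimulation in WT cells, 0 for KO-labelled against WT stimulated cells and 4, 0 and 0 for genotype by stimulation, XCT790 and CompA. With the mean unstimulated WT profile in its place, a setting chosen after seeing the data, they were 10, 0 and 3, 0 and 0. Without the KO-labelled run that holds replicate 2, CompA against stimulation gave 3 and genotype by CompA 4. Shares of all genes called are not given for the block fits, the fits of only the 2 groups, the mean profile or the fits without that run.

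Leaving out each library gave 32 to 34 members for stimulation in KO-labelled and 23 to 27 in WT cells, 6 to 9 and 21 to 23 for XCT790 against stimulation, 2 to 8 and 9 to 11 for CompA against stimulation, and 1 to 4 and 5 to 7 for XCT790 against CompA. It gave 32 to 34 and 28 to 31 for XCT790 against unstimulated and 30 to 32 and 27 to 30 for CompA against unstimulated cells. Between KO-labelled and WT cells it gave 7 to 20 unstimulated, 6 to 17 stimulated and 0 with either compound. Genotype by stimulation ranged from 7 to 19, by XCT790 from 5 to 13, by CompA from 4 to 12 and by the difference of the compounds stayed at 0.

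Of members called under 1 or both settings, signs turned with upper-quartile factors for Pdia4 (-0.23) and Edem1 (-0.074) with stimulation in KO-labelled cells, Herpud1 with XCT790 against unstimulated KO-labelled cells (-0.021), and Edem1 (-0.24) and Syvn1 (-0.0014) with XCT790 against unstimulated WT cells. With library totals they turned for Pdia4 (-0.30) and Edem1 (-0.15) with stimulation, Herpud1 with XCT790 (-0.080) and CompA (-0.23) and Pdia4 with CompA (-0.025) against unstimulated KO-labelled cells, Edem1 with XCT790 against unstimulated WT cells (-0.16), and Pdia6 between unstimulated KO-labelled and WT cells (0.18). With the share subtracted they turned in WT cells with XCT790 against stimulation for Dnajb11 (-0.010), Eif2ak3 (0.51) and Ppp1r15a (0.17), and with CompA for Canx (-0.19), Dnajb11 (-0.17), Ern1 (0.66) and Ppp1r15a (0.25). Between KO-labelled and WT stimulated cells they turned for Calr (-0.043), Dnajb11 (-0.099), Creld2 (-0.052), Pdia6 (-0.0061) and Ppp1r15a (0.14), and in genotype by CompA for Canx (0.010). With the mean profile Eif2ak3 with XCT790 (0.50) and Canx with CompA (-0.20) had the same turned sign with no call, and the values of the others in that order were -0.0036 and 0.20 with XCT790, -0.17, 0.64 and 0.27 with CompA, -0.043, -0.092, -0.051, -0.0064 and 0.17 between the genotypes, and 0.020 in genotype by CompA. Why these values turned was not tested. Derl3 and Pdia5 rest on few counts, and other members had counts in every library.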
